A study of Mus musculus with 2 samples.

Results

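Basal keratinocytes with Igfbp3 are cells of the lowest layer of the mouse gingival epithelium that carried UMIs (unique molecular identifiers, each counting 1 captured RNA molecule) of the gene for insulin-like growth factor binding protein 3. They were chosen from their own read-out: barcodes with at least 800 detected genes, at least 1% of UMIs from Krt5 and Krt14 together, at least 3 Col17a1 UMIs, Krt76, Krt24 and Krt10 UMIs together below 10% of those of Krt5 and Krt14, fewer than 5 UMIs in all of Mki67, Top2a, Cenpf, Cdc20, Ccnb1 and Ube2c, and at least 2 Igfbp3 UMIs. The rule selected 660 cells of 6165 with at least 800 genes (8235 barcodes in all), 504 of them in the CpG ODN library and 156 in the LPS library. The study asked how the gingiva responds to bacterial components placed on it. Female wild type C57Bl6/J mice aged 8 to 12 weeks received 3 µl of a 1 µg/ml ligand on the palatal gingiva for 1 h under an oral appliance, and the tissue was taken on day 4. The ligand was CpG ODN, an unmethylated oligonucleotide read by Toll-like receptor 9, for 1 library, and lipopolysaccharide (LPS) of Porphyromonas gingivalis, labelled a TLR2/4 ligand, for the other. Each library pooled the cells of 4 mice, so there is 1 library per ligand and no replicate. Ligand, mice and library cannot be told apart, no difference between the libraries can be tested, and all intervals below cover counting error only, at 95%.

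Igfbp3 is secreted and binds insulin-like growth factors outside the cell, which keeps them from their receptor Igf1r, and it also has actions that do not need the growth factors. Basal keratinocytes sit on the basement membrane, hold to it through hemidesmosomes built on Col17a1 and the integrin of Itga6 and Itgb4, and give rise to the layers above, which replace Krt5 by keratins such as Krt76, Krt24 or Krt10 in hard palate and gingiva. Keratinocytes that are activated by injury switch on Krt6a, Krt16 and Krt17.

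The libraries differed in depth. The cells of the CpG ODN library with Igfbp3 held a median of 10030 UMIs (lowest 2419, highest 40697) and those of the LPS library 19448 (6534 to 47161). Levels below are therefore UMIs per 1000000 (CPM) summed over cells thinned at random to 8000 UMIs each, which kept 411 and 153 of the cells with Igfbp3 in the CpG ODN and LPS library, and 443 and 130 of the basal cells that met the rest of the rule with 0 or 1 Igfbp3 UMI, here called Igfbp3-poor. At that depth the cells with Igfbp3 had a median of 2264 and 2290 detected genes and the Igfbp3-poor cells 2275 and 2257. Mitochondrial genes took 5.21% and 6.34% of UMIs in cells with Igfbp3 and 5.36% and 6.72% in Igfbp3-poor cells, and ribosomal protein genes 35.6% and 34.6% against 36.6% and 35.9%. The libraries shared 5 barcodes, 1 of which was counted among the cells with Igfbp3. No doublets were removed.

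Igfbp3 itself (chromosome 11, 7206086 to 7213923, minus strand, GRCm38) was unevenly spread over its own cells. As counted, the selected cells held a median of 5 Igfbp3 UMIs in the CpG ODN library (lowest 2, highest 105) and 6.5 in the LPS library (lowest 2, highest 145), and the richest 10% of cells held 39.5% and 43.8% of all Igfbp3 UMIs of their group. At equal depth the level was 701 CPM (interval 673 to 731) in the CpG ODN library and 667 (622 to 715) in the LPS library. These values describe the rule, which used Igfbp3. Just inside the threshold lay 114 and 17 cells with exactly 2 Igfbp3 UMIs and just outside it 166 and 28 cells with exactly 1. As counted, cells with 1 and with 2 Igfbp3 UMIs held 1207 and 1301 CPM of Col17a1, 619 and 377 of Dcn, 722 and 780 of Krt17 and 245 and 298 of Wnt4 in the CpG ODN library. In the LPS library they held 1202 and 1370 of Col17a1, 851 and 641 of Dcn, 268 and 512 of Krt17 and 243 and 327 of Wnt4. With 0 and with 3 Igfbp3 UMIs, Krt17 stood at 697 and 1506 in the CpG ODN library. In the LPS library it stood at 659 and 222, so there it had no order near the threshold.

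The share of basal cells with Igfbp3 was close in both libraries at equal depth. With at least 2 Igfbp3 UMIs of 8000 required, 357 of 854 basal cells passed after CpG ODN (41.8%, exact Clopper-Pearson interval 38.5 to 45.2), and 118 of 283 after LPS (41.7%, 35.9 to 47.7). Another random draw of the thinning gave 41.0% and 36.7%. As counted, the shares were 45.1% (504 of 1118) and 54.0% (156 of 289), and the deeper library had the higher share. With 5 or more UMIs of 8000 required, the shares were 18.4% and 18.02%, and with 10 or more they were 7.73% and 9.19%. The share itself thus depended on the threshold far more than on the library. Dividing basal cells, which met the keratin and Col17a1 criteria with 5 or more UMIs of the mitosis genes, reached 2 Igfbp3 UMIs of 8000 in 32.0% (23.2 to 42.0) and 37.5% (24.9 to 51.5), and differentiating keratinocytes, past the 10% limit of Krt76, Krt24 and Krt10, in 13.1% (11.6 to 14.8) and 14.4% (11.1 to 18.3).

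Lymphoid cells, taken as cells with a UMI of Cd79a or Cd3e and under 1% of UMIs from Krt5 and Krt14, and expected to lack Igfbp3, were used as the background from free RNA. Doublets and keratinocytes low in Krt5 and Krt14 were not removed from them. An Igfbp3 UMI was found in 1.90% of 579 lymphoid cells of the CpG ODN library (median 2957 UMIs) and in 2.04% of 98 of the LPS library (median 3591). In Igfbp3-poor basal cells it was found in 27.0% (median 9408 UMIs) and 21.1% (median 18289). Thinned to 1500 UMIs, the expected shares were 0.564% and 0.292% in lymphoid cells, 4.64% and 2.07% in Igfbp3-poor basal cells, and 56.4% and 48.2% in the cells with Igfbp3. The Igfbp3-poor basal cells thus lay above the lymphoid share in both libraries, although the rule allowed them 1 UMI at most.

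**Figure D1:**
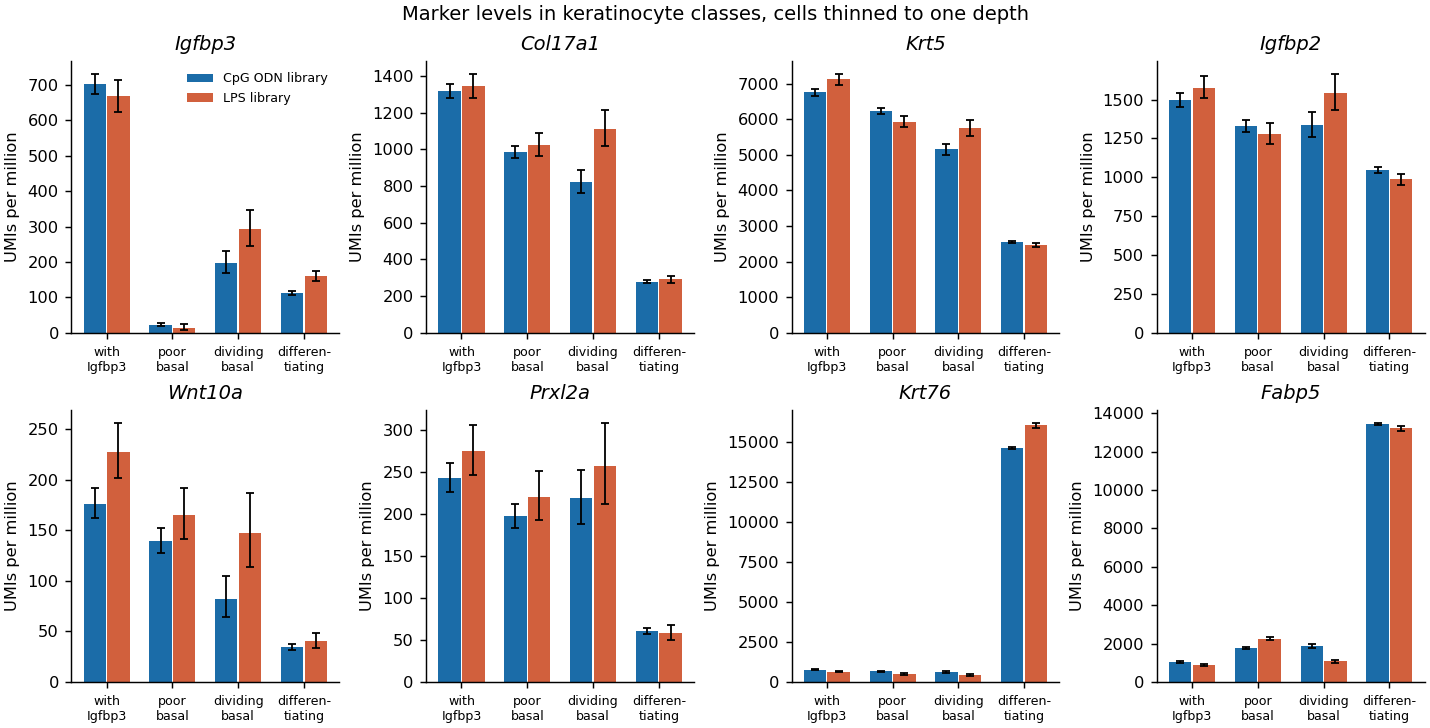
Levels of 8 genes in 4 keratinocyte classes of each library, in CPM of cells thinned to 8000 UMIs, with exact Poisson intervals as error bars ("poor basal" stands for Igfbp3-poor). Col17a1, Krt5, Wnt10a and Prxl2a are low in differentiating cells and near each other in basal cells with and without Igfbp3, while Igfbp3 sets them apart by the rule.

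The markers that came with the cell label marked basal cells at large more than basal cells with Igfbp3. Krt5 (a keratin of basal cells) stood at 6755 and 7119 CPM in the CpG ODN and LPS library in cells with Igfbp3, at 6234 and 5936 in Igfbp3-poor cells and at 2548 and 2459 in differentiating cells. Col17a1 (collagen XVII of the hemidesmosome) stood at 1319 and 1344, at 985 and 1025, and at 278 and 292. Both were in the rule. Igfbp2, another IGF binding protein, was not in the rule and stood at 1497 and 1577 in cells with Igfbp3, at 1330 and 1282 in Igfbp3-poor cells and at 1048 and 987 in differentiating cells. The Wnt ligand gene Wnt10a stood at 177 and 228, at 139 and 165, and at 34.3 and 40.8 in the same order. Prxl2a, a peroxiredoxin-like gene, stood at 243 and 275, at 197 and 220, and at 60.5 and 58.2. The ratio of cells with Igfbp3 to Igfbp3-poor cells was 1.13 and 1.23 for Igfbp2, 1.27 and 1.38 for Wnt10a, and 1.23 and 1.25 for Prxl2a, all under 1.5. Trp63, the transcription factor that basal keratinocytes depend on, stood at 254 and 261 in cells with Igfbp3 and at 253 and 261 in Igfbp3-poor cells. The cells therefore carried the markers of basal keratinocytes, and of the label's markers only Igfbp3, which the rule used, differed by more than 1.5 times.

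Few genes passed 1.5 times with Igfbp3 within the basal layer. Of 2550 genes with at least 100 UMIs over both cell groups in each library, 18 (percent of those tested 0.706) were at least 1.5 times higher in cells with Igfbp3 in both libraries and 10 (0.392) at least 1.5 times lower. Over all tested genes the median log2 ratio was -0.02 in the CpG ODN library and 0.02 in the LPS library, and 90% of genes lay between -0.30 and 0.35 and between -0.40 and 0.49. The 18 genes included Cdo1, Spink5, Krt17, Sipa1l3, Hspb1, Cald1, Wnt4, Col18a1, Tuba4a, Dapk2, Htra1, Lama3, Ly6a, Slc6a6, Ndufa4l2, Gdpd2 and Cspg4, and the 10 were Dcn, Mt3, Krt13, Hpgd, Cck, Fabp5, Pappa, Fmo1, Jag1 and Ifi27l2a. Over all tested genes, 774 of 2550 had a ratio above 1 in both libraries and 792 below 1 in both, which is the background for the counts by list below. The interval for counting error lay above 1 in both libraries for 130 of the 2550 genes and below 1 in both for 79. The cells were split by 1 gene of the same data, so these ratios describe the split and are no test.

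**Figure D2:**
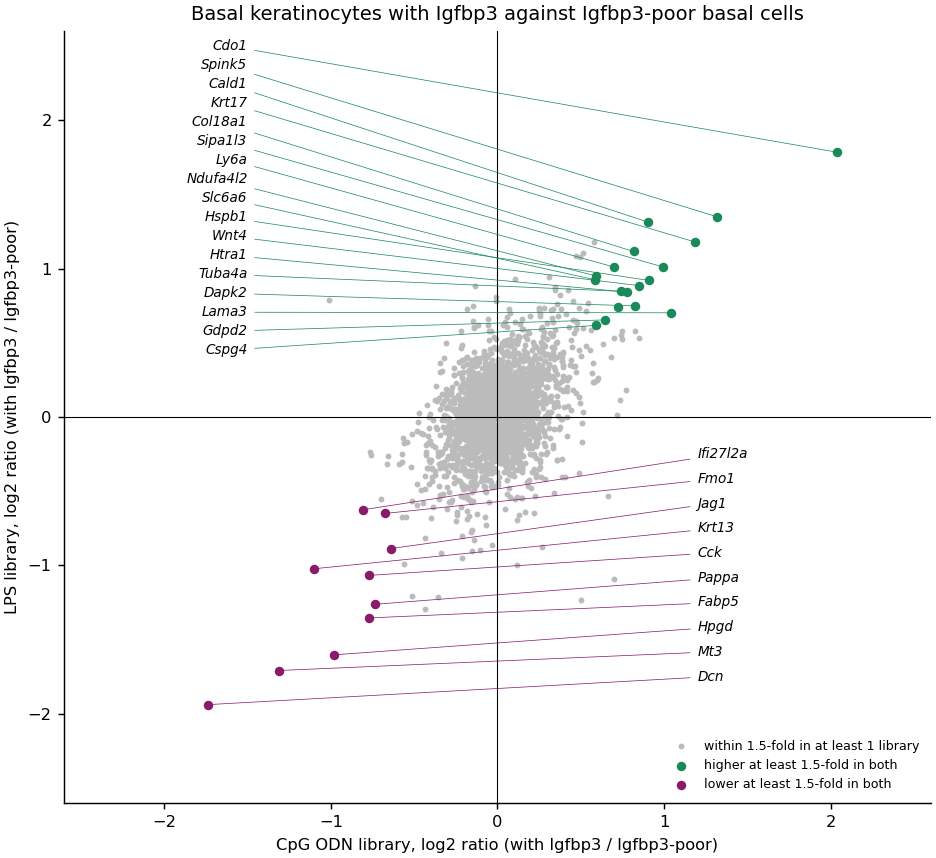
Log2 ratio of CPM in basal cells with Igfbp3 over Igfbp3-poor basal cells, in the CpG ODN library (horizontal axis) and in the LPS library (vertical axis), for 2546 of 2550 genes; each point is a gene, and 4 genes lie outside the axes. Green points are the 18 higher genes and purple points the 10 lower genes, nearly all of them named, and Dcn lies furthest to the lower left.

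Genes of basement membrane attachment leaned towards cells with Igfbp3. Of the 14 tested genes of the anchorage list, 12 had a ratio above 1 in both libraries (774 of 2550 over all genes), 1 below 1 in both (792 of 2550), and 2, Lama3 among them, passed 1.5, with median log2 ratios of 0.33 and 0.40 beside -0.02 and 0.02 for all genes. Lama3 and Lamb3 encode chains of a laminin of the basement membrane that hemidesmosomes hold on to. Lama3 stood at 83.6 CPM in cells with Igfbp3 against 40.6 in Igfbp3-poor cells of the CpG ODN library (ratio 2.06, interval 1.68 to 2.54) and at 73.5 against 45.2 in the LPS library (1.63, 1.13 to 2.37). Lamb3 stood at 166 against 132 (1.26) and at 209 against 157 (1.33), leaning the same way by less. Itga6 reached ratios of 1.28 and 1.32, its partner Itgb4 only 1.06 and 1.10, and Itgb1, the common integrin beta chain, 1.26 and 1.46. Col7a1, which forms the anchoring fibrils under the basement membrane, reached 1.47 and 1.37. Dag1 (dystroglycan) ran the other way, with ratios of 0.90 and 0.76. Col18a1, a basement membrane collagen outside that list, stood at 87.0 against 49.4 (1.76) and at 83.3 against 38.5 (2.17).

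Keratin 17 and the small heat shock protein Hspb1 were both higher in cells with Igfbp3. Krt17 (chromosome 11, 100256217 to 100261029), a keratin of activated and appendage keratinocytes, stood at 1561 against 686 CPM in the CpG ODN library (ratio 2.28, interval 2.17 to 2.39) and at 1355 against 598 in the LPS library (2.26, 2.06 to 2.49). It was found in 75.9% and 71.2% of thinned cells with Igfbp3 and in 58.7% and 53.8% of Igfbp3-poor cells, with a median of 3 and 2 UMIs per cell and a 90th percentile of 30 and 24, against a median of 1 and a 90th percentile of 10 and 10.2 in Igfbp3-poor cells. Krt17 was also found in the cells taken as lymphoid: 9.67% and 12.2% of them had a Krt17 UMI, with 392 and 1913 CPM as counted, beside 1736 and 1623 in cells with Igfbp3 and 703 and 582 in Igfbp3-poor cells as counted. Whether this came from free RNA, doublets or keratinocytes low in Krt5 and Krt14 was not tested. Hspb1 (chromosome 5, 135887919 to 135889563) was found in all thinned cells with Igfbp3 and stood at 1782 against 947 (1.88, 1.80 to 1.96) and at 1498 against 791 (1.89, 1.74 to 2.06). The middle cell moved with the mean here, with medians of 12 and 10 UMIs per cell against 6 and 5. Krt6a moved less, with ratios of 1.38 and 1.27, and of the 5 tested genes of the stress keratin and wound list only Krt17 passed 1.5 in both libraries; the median log2 ratio of that list was 0.51 in the CpG ODN library and -0.17 in the LPS library. Krt16 had opposite ratios, 1.62 and 0.47, with 29.6% of its UMIs in Igfbp3-poor cells of the LPS library in 1 cell.

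Genes of the IGF axis went both ways. Of its 24 listed genes 7 were tested, 5 had a ratio above 1 in both libraries and 1 below (774 and 792 of 2550 over all genes), with median log2 ratios of 0.35 and 0.23. Htra1, a secreted protease that can cleave IGF binding proteins, stood at 92.8 against 55.6 CPM (ratio 1.67, interval 1.39 to 2.01) and at 135 against 75 (1.80, 1.36 to 2.38). Pappa, the metalloprotease that frees IGF by cleaving Igfbp4 and Igfbp5 (chromosome 4, 65124174 to 65357509), was lower in cells with Igfbp3, at 163 against 271 (0.60, 0.54 to 0.67) and at 170 against 408 (0.42, 0.35 to 0.49). Igf1r stood at 106 against 77.6 (1.37) and at 88.2 against 77.9 (1.13, interval 0.84 to 1.53), Igfbp4 at 72.1 against 64.9 and at 71.1 against 60.6, and Igfbp7 at 141 against 111 and at 204 against 172. The ligands were near absent in these cells: Igf1 gave 1 UMI in the 411 thinned cells with Igfbp3 of the CpG ODN library and 0 in the LPS library, and Igf2 gave 1 in each.

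Of the Wnt genes with enough counts, 1 ligand passed 1.5 times. Wnt4 (chromosome 4, 137277489 to 137299726) stood at 401 against 222 CPM (ratio 1.80, interval 1.65 to 1.97) and at 417 against 226 (1.85, 1.58 to 2.17), and was found in 89.5% and 90.8% of cells with Igfbp3 and in 74.0% and 72.3% of Igfbp3-poor cells. Of 50 listed Wnt ligands, receptors and targets 7 passed the filter on low counts, 3 with a ratio above 1 in both libraries and 2 below (774 and 792 of 2550 over all genes), with median log2 ratios of -0.08 and 0.08. Under the filter, the ligand gene Wnt3a stood at 14.6 against 9.03 (1.62) and at 21.2 against 11.5 (1.84), and Wnt9a had ratios of 1.83 and 3.40 on 17 and 4 UMIs in cells with Igfbp3. The receptor gene Lgr6, also under the filter, stood at 8.52 against 22.6 and at 8.99 against 37.5. Other higher genes were Ly6a, the surface protein known as Sca-1, at 349 against 215 (1.63) and at 314 against 156 (2.01), and the taurine transporter gene Slc6a6, at 582 against 388 (1.5) and at 537 against 283 (1.90).

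Spink5 and Cdo1 had the highest ratios on few cells. Spink5, an inhibitor of the proteases that shed the outer layer, stood at 104 against 41.8 (2.49) and at 61.3 against 24.0 (2.55), but was found in 17.8% and 17.6% of cells with Igfbp3. For cells with 5 or more Igfbp3 UMIs as counted over basal cells with fewer than 5, its ratios were 1.49 and 1.06. That comparison group is wider than the Igfbp3-poor cells, so these ratios are not on the same footing. Cdo1, cysteine dioxygenase, stood at 31.3 against 7.62 (4.11) and at 123 against 35.6 (3.44), was found in 2.43% and 4.58% of those cells, and had 33.0% and 33.3% of its UMIs there in 1 cell. With each cell given equal weight, its ratios were 1.41 and 3.64. Other genes of the differentiation list went both ways: Sfn (1.25 and 1.32) and Dmkn (1.48 and 1.499) had ratios above 1, while Ly6d (0.67 and 0.63), Calml3 (0.70 and 0.43) and Krt13 (0.47 and 0.49) had ratios below 1. Of 15 tested genes of that list 6 had a ratio above 1 in both libraries and 5 below (774 and 792 of 2550 over all genes), with median log2 ratios of 0.13 and -0.05. Krt13, a keratin of soft oral lining, stood at 277 against 593 and at 424 against 862.

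Of the 10 lower genes, Dcn had the lowest ratio in both libraries. Dcn (chromosome 10, 97479609 to 97518143) encodes decorin, a small proteoglycan that fibroblasts make in large amounts. It stood at 219 against 730 CPM in the CpG ODN library (ratio 0.30, interval 0.28 to 0.33) and at 333 against 1278 in the LPS library (0.26, 0.23 to 0.29). It was found in 31.9% and 45.8% of cells with Igfbp3 and in 53.5% and 66.9% of Igfbp3-poor cells. The other 5 genes of the fibroblast list were at or near 0 in the same cells: their summed level was 18.9 and 2.45 in cells with Igfbp3 (51 of 62 UMIs of the first in 1 cell) and 16.9 and 0 in Igfbp3-poor cells of the CpG ODN and LPS library, and at least 2 of their UMIs were found in 1 of 411, 0 of 153, 1 of 443 and 0 of 130 cells. In the LPS library, all 5 were at 0 in the Igfbp3-poor cells, where Dcn was highest. The Igfbp3-poor cells of that library thus held Dcn without a UMI of the other fibroblast genes. Lymphoid cells held a Dcn UMI in 1.90% and 3.06%. Without every cell with 2 or more UMIs of a list of markers of other cell types, the ratios of Dcn were 0.34 and 0.28 where Dcn was not counted among the markers, and 1.06 and 0.46 where it was, which removes cells for their Dcn.

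The other lower genes were of several kinds. Hpgd, which breaks down prostaglandins (chromosome 8, 56294585 to 56321043), stood at 212 against 418 (0.51, interval 0.46 to 0.56) and at 172 against 521 (0.33, 0.28 to 0.39). The prostaglandin synthase gene Ptgs2 did not pass the filter, with 31 and 9 UMIs in cells with Igfbp3 and 2 and 0 in Igfbp3-poor cells, and 41.9% of the 31 came from 1 cell. Fabp5, a fatty acid binding protein that rises as keratinocytes differentiate, stood at 1045 against 1781 (0.59) and at 881 against 2252 (0.39), while differentiating cells had 13433 and 13216. The flavin monooxygenase gene Fmo1 had ratios of 0.63 and 0.64 and the peptide hormone gene Cck 0.59 and 0.48. All 4 metallothioneins had ratios below 1 in both libraries: Mt1 at 2085 against 2823 (0.74) and at 1775 against 2481 (0.72), Mt2 with ratios of 0.75 and 0.73, Mt4 with 0.68 and 0.63, and Mt3 with 0.40 and 0.31, the last with 30.8% and 33.3% of its UMIs in 1 of the cells with Igfbp3. In the list of metallothionein and metabolic genes, 7 of 15 tested had a ratio below 1 in both libraries and 4 above (792 and 774 of 2550 over all genes), with median log2 ratios of -0.25 and -0.19. The Notch receptor gene Notch1 had ratios of 0.81 and 0.77 and the ligand gene Jag1, past 1.5 times, 0.64 and 0.54, and they were the 2 of 4 tested genes of the Notch list with a ratio below 1 in both libraries (792 of 2550 over all genes, and median log2 ratios of -0.04 and -0.31 for the list).

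Set beside differentiating keratinocytes, the cells with Igfbp3 had no single place. For Dcn, Hpgd and Hspb1 they lay between Igfbp3-poor basal cells and differentiating cells, which stood at 76.4 and 86.4 CPM of Dcn, 81.1 and 65.5 of Hpgd, and 2131 and 1941 of Hspb1. For Fabp5 they lay on the far side of Igfbp3-poor cells from differentiating cells, and so they did for Krt5 and Col17a1, whose order the selection fixes in part. Wnt4 stood at 226 and 245 in differentiating cells, near the level of Igfbp3-poor cells and below that of cells with Igfbp3. Krt76 and Krt24, which the rule limits, stood at 778 and 642 and at 527 and 444 in cells with Igfbp3, at 661 and 490 and at 375 and 307 in Igfbp3-poor cells, and at 14628 and 16042 and at 5789 and 5966 in differentiating cells.

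Some levels, though not those of all genes past 1.5 times, followed the amount of Igfbp3 beyond its threshold. All basal cells outside division were split by their Igfbp3 count at 8000 UMIs into 0 (367 cells after CpG ODN and 125 after LPS), 1 (130 and 40), 2 to 4 (200 and 67), 5 to 9 (91 and 25) and 10 or more (66 and 26), limits chosen after the data were seen. Hspb1 stood at 966, 1115, 1487, 1990 and 2634 CPM over these steps in the CpG ODN library and at 823, 1000, 1375, 1890 and 1913 in the LPS library. Wnt4 went from 228 with no Igfbp3 to 663 with 10 or more in the CpG ODN library, and from 236 to 639 in the LPS library. Krt17 went from 680 to 3159, with 1400 and then 1262 in between, and from 602 to 2082, and Lama3 from 40.5 to 138 and from 47 to 91.3. Itga6 climbed less, from 402 to 631 and from 396 to 639. Dcn fell over the steps from 753 to 512, 261, 177 and 39.8 in the CpG ODN library, and in the LPS library from 1190 to 716, 509, 85 and then 135. Hpgd went from 418 to 68.2 and from 500 to 43.3, and Pappa from 260 to 45.5 and from 385 to 101. Other genes past 1.5 times did not follow it. From 2 to 4 Igfbp3 UMIs upwards, Spink5 went from 154 to 72.8 and 60.6 in the CpG ODN library and from 65.3 to 40 and 33.7 in the LPS library. Over the same steps Dapk2 stood at 101, 94.8 and 92.8 and at 69.0, 60 and 72.1, and Cald1 after LPS went from 85.8 to 190 and back to 52.9. Fabp5 (1004, 934 and 1206) and Krt13 (274, 120 and 290) did not go on falling after CpG ODN. Trp63 stayed between 234 and 283 and between 240 and 272, with no order over the steps.

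**Figure D3:**
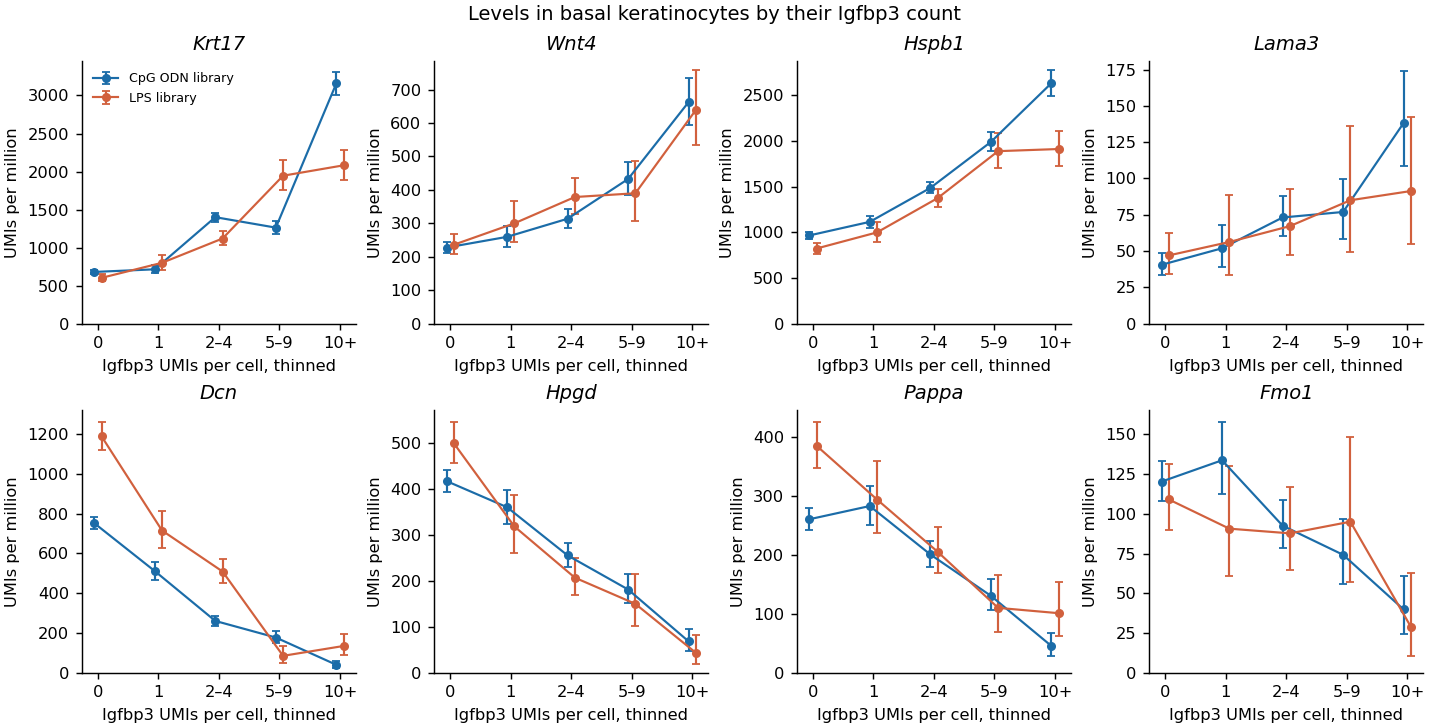
Levels of 8 genes in basal keratinocytes grouped by their Igfbp3 count after thinning to 8000 UMIs, in CPM with exact Poisson intervals, for each library. Krt17, Wnt4, Hspb1 and Lama3 are highest in the cells with 10 or more Igfbp3 UMIs in both libraries, and Hpgd, Pappa and Fmo1 lowest there, while Dcn after LPS is lowest at 5 to 9.

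Cells rich in both Igfbp3 and Dcn were rare. Of basal cells with 5 or more Igfbp3 UMIs of 8000, 9 of 157 in the CpG ODN library (5.73%, exact interval 2.65 to 10.6) and 2 of 51 in the LPS library (3.92%, 0.478 to 13.5) also had 5 or more of Dcn, against 26.0% (22.7 to 29.4) of 697 and 38.8% (32.5 to 45.4) of 232 other basal cells. For Hpgd the shares were 6.37% and 3.92% against 20.1% and 25.9%. Krt17 ran the other way, at 56.1% and 54.9% against 26.1% and 22.0%, and so did Wnt4, at 33.8% and 37.3% against 11.05% and 13.8%. For Fabp5, whose ratio was among the lowest, the shares of cells were closer, 47.8% and 41.2% against 49.9% and 49.6%. These shares use a split at 5 Igfbp3 UMIs, unlike the ratio. In the split of the ratio, the 90th percentile of Fabp5 was 38 and 50.3 UMIs in Igfbp3-poor cells. It was 21 and 19 in cells with Igfbp3.

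**Figure D4:**
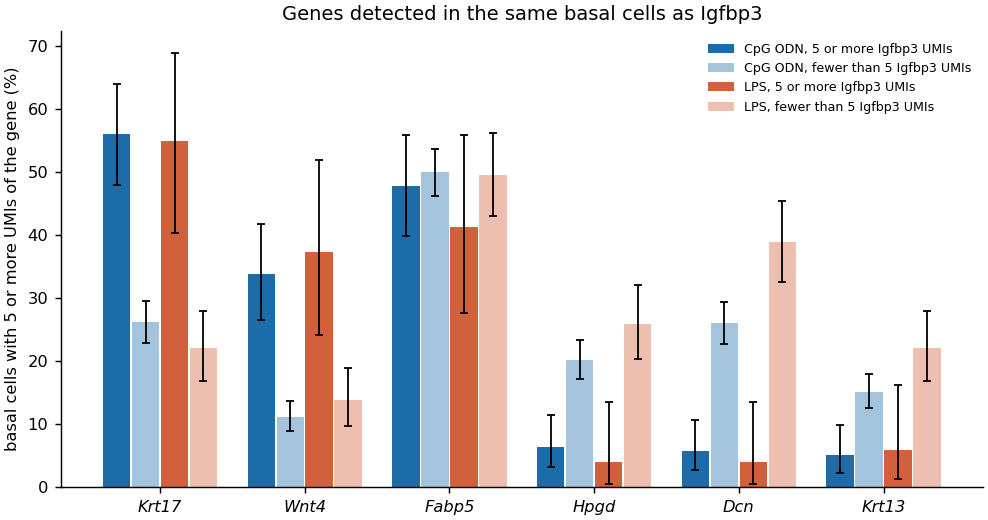
Share of basal keratinocytes with 5 or more UMIs of each of 6 genes at 8000 UMIs per cell, for cells with 5 or more Igfbp3 UMIs (full colour) and for the others (pale), in each library, with exact Clopper-Pearson intervals. Krt17 and Wnt4 are found more often in the Igfbp3-rich cells, and Hpgd, Dcn and Krt13 less often.

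Few genes of basal identity, the cell cycle and the early response passed 1.5 times. In the list of basal keratins and transcription factors 14 genes were tested, none passed 1.5, 4 had a ratio above 1 in both libraries and 8 below (774 and 792 of 2550 over all genes), and the median log2 ratios were -0.04 and -0.02. The list of DNA replication and G1/S genes had 8 of 30 tested, none past 1.5 times, with medians of 0.03 and -0.06, in cells from which the rule had removed those with 5 or more UMIs of mitosis genes. Of 18 tested genes of the immediate early list, Hspb1 alone passed 1.5, with medians of 0.12 and -0.01, and Fos stood at 1298 against 1284 and at 1139 against 1227. In the TGF-beta and BMP list 10 were tested (medians 0.21 and 0.03), with none past 1.5. The latent TGF-beta binding protein gene Ltbp1 did not pass the filter and stood at 63.9 against 30.5 and at 35.1 against 15.4. The redox list had 17 tested (0.02 and 0.06), the cytokine list 6 (-0.15 and -0.22), the TLR pathway 2 (0.02 and -0.37) and the interferon and antigen presentation list 5 (-0.01 and 0.04), none past 1.5 in either direction. Receptors for the applied ligands were barely counted in the thinned cells with Igfbp3: Tlr9 gave 1 UMI in the CpG ODN library and 0 in the LPS library, Tlr4 gave 8 and 2, and Tlr2 gave 7 and 1.

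Between the ligands, few genes passed 2 times in the cells with Igfbp3. Of 4559 genes with at least 100 UMIs over both libraries, 16 (percent of those tested 0.351) were at least 2 times higher after CpG ODN and 10 (0.219) at least 2 times higher after LPS, and the median ratio over all of them was 1.00. The interval for counting error lay above 1 for 294 of the 4559 genes and below 1 for 291. Igfbp3, which the rule used, stood at 701 and 667 CPM. The rule was applied to counts as deposited, which were deeper in the LPS library. After thinning, 54 of 411 and 35 of 153 of the cells held fewer than 2 Igfbp3 UMIs. These levels therefore give no comparison of the ligands. Of the genes past 2 times, 2 of the 16 and 2 of the 10 also passed it in Igfbp3-poor cells, Cd74 and Krt42 higher after CpG ODN and Lars2 and Cdo1 higher after LPS. With another random draw of the thinning, 8 of the 16 and 7 of the 10 were still past 2 times, so membership of these counts turned in part on the draw. Other settings kept fewer of the 16. These were 3 and 4 genes at 4000 UMIs, 3 and 5 at 15000, and 2 and 6 with the rule on thinned counts. As a mean over cells 4 and 7 were kept, and without cells with markers of other cell types 3 and 1.

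Several of the largest ratios came from few cells. The MHC class II chaperone gene Cd74 stood at 32.2 CPM after CpG ODN and 0.817 after LPS in cells with Igfbp3, from 10 and 1 cells (ratio 39.5, interval 6.93 to 1573), and at 17.2 and 0 in Igfbp3-poor cells; lymphoid cells of the CpG ODN library had 7693 as counted. Cd74 is itself among the 7 markers of immune cells, whose sum was 43.8 in the cells with Igfbp3 after CpG ODN, with 106 of 144 UMIs from Cd74, and 4.08 after LPS, with 1 of 5 UMIs from it. Krt6b stood at 55.4 and 8.17, with 62.1% of the first in 1 cell, and its ratio of 6.78 in cells with Igfbp3 stood beside 0.44 in Igfbp3-poor cells. Odam (34.1 and 11.4), an odontogenic protein of junctional epithelium, had 81.3% of its UMIs after CpG ODN in 1 cell. BC037156 (259 and 128, ratio 2.02) was not among the largest ratios and had 86.9% and 80.3% in 1 cell of each library. Krt42 (106 and 42.5) had 43.3% and 63.5% in 1 cell of each.

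Genes spread over more cells had ratios of 2.82 or less. Higher after CpG ODN were Mcm3, a subunit of the replication helicase, at 27.7 against 9.80 (ratio 2.82, interval 1.54 to 5.66), Carm1, an arginine methyltransferase, at 26.5 against 10.6 (2.49), Samd1 at 28.3 against 12.3 (2.31), the microtubule gene Clasp1 at 29.8 against 13.1 (2.28), Crybg3 at 44.1 against 20.4 (2.16) and Ppil3 at 33.2 against 15.5 (2.14). In Igfbp3-poor cells the ratios of these genes were 1.42, 0.66, 1.37, 1.76, 0.97 and 0.90 in the same order. Each LPS value of these 6 genes rested on 25 UMIs or fewer. The limit of fewer than 5 UMIs of mitosis genes acted on counts as deposited, so it was stricter in the deeper LPS library. Its part in the ratio of Mcm3 was not tested. None of the 6 passed 2 times in the other basal cells. Nolc1 rested on 337 and 62 UMIs, in 50.6% and 32.7% of cells with Igfbp3. Its ratio was 2.02 (interval 1.54 to 2.70), beside 0.94 in Igfbp3-poor cells. Camk1d (2.05), Ing2 (2.12), Wnk4 (2.03) and Kcnj15 (2.08) had ratios of 1.54, 0.79, 1.31 and 0.96 there.

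Higher after LPS were Lars2, a mitochondrial leucyl-tRNA synthetase, at 70.9 after CpG ODN and 178 after LPS (ratio 0.40, interval 0.33 to 0.48), and at 68.8 and 211 in Igfbp3-poor cells (0.33). The chemokine gene Cxcl1, which draws neutrophils, stood at 49.9 and 100 (0.50, interval 0.39 to 0.63) and at 71.4 and 127 in Igfbp3-poor cells (0.56), and was found in 19.2% and 20.9% of cells with Igfbp3. The kinase gene Pim1 (0.49), the RNA binding protein gene Tia1 (0.48), Bloc1s1 (0.48), the transglutaminase gene Tgm3 (0.47), the glutathione transferase gene Gsta3 (0.50), and Krt4 (0.51) and Stx6 (0.51), which did not pass 2 times, had ratios in Igfbp3-poor cells of 0.84, 0.73, 0.67, 0.57, 0.72, 0.28 and 1.10 in that order. Cdo1, at 31.3 and 123, rested on 10 and 7 cells. The hemoglobin genes Hbb-bs and Hba-a1 passed 2 times, with 51.5% and 50.5% of their UMIs after LPS in 1 cell. The summed level of the erythroid markers was 90.9 after CpG ODN and 712 after LPS in cells with Igfbp3 and 258 and 59.6 in Igfbp3-poor cells, and their part in other differences was not tested.

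**Figure D5:**
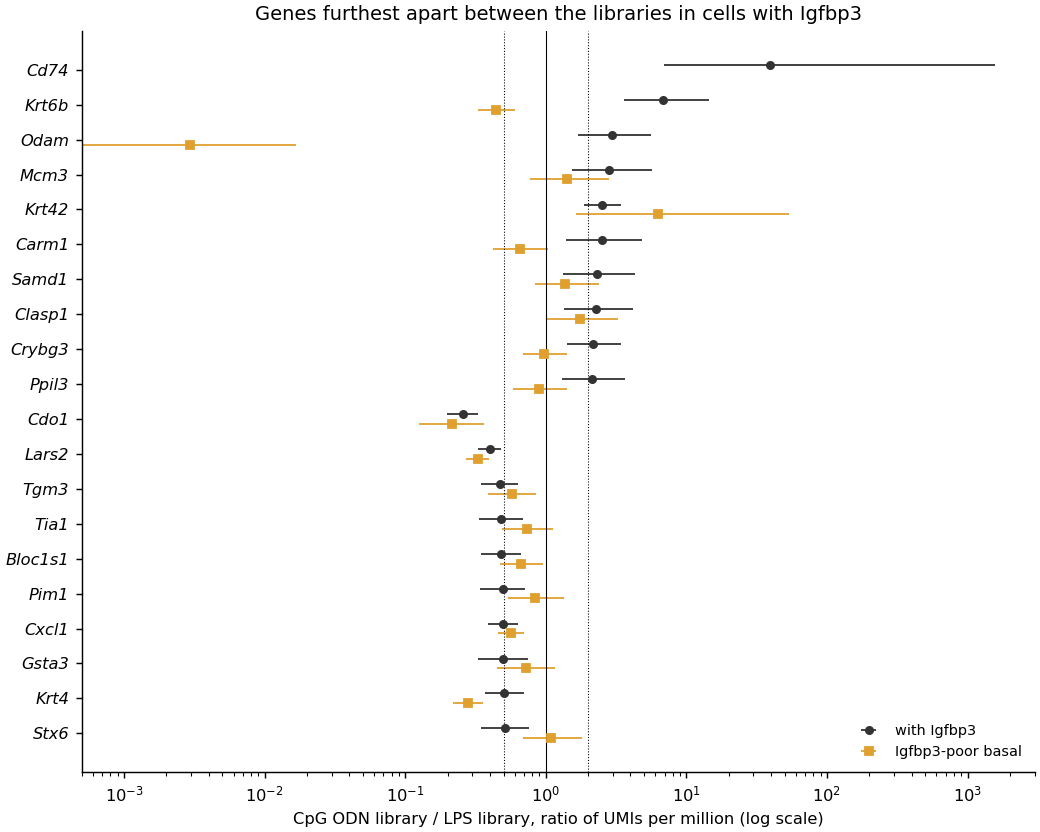
Ratio of CPM in the CpG ODN library over the LPS library (log axis) for the 10 highest and the 10 lowest genes in basal cells with Igfbp3 (black circles), beside Igfbp3-poor basal cells (orange squares), with exact intervals for counting error and dotted lines at 2 and 0.5. Lars2, Cxcl1 and Cdo1 lie on the same side in both cell groups, Krt6b and Odam change sides, and Cd74 has no square because it was at 0 in Igfbp3-poor cells after LPS.

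By list, few genes passed 2 times between the ligands. None of the 10 tested genes of the IGF axis, 11 of the Wnt list, 17 of the anchorage list or 18 of the metallothionein and metabolism list passed 2 times, and their median log2 ratios of CpG ODN over LPS were -0.28, 0.01, -0.11 and -0.12, beside a median ratio of 1.00 over all genes. There was 1 gene past it in each of 4 other lists: Krt6b of 6 stress keratin and wound genes (median log2 ratio 0.38), Mcm3 of 14 DNA replication genes (0.25), Cxcl1 of 9 cytokine genes (-0.19) and Cd74 of 6 interferon and antigen presentation genes (-0.31). The mitosis limit, stricter in the deeper LPS library, also applies to the DNA replication list, where its part was not tested. Of the genes past 1.5 times with Igfbp3, several had a ligand ratio nearer 1 in cells with Igfbp3 and others did not. Krt17 had a ratio of 1.15 (1.09 to 1.22), Hspb1 1.19, Wnt4 0.96, Lama3 1.14 and Pappa 0.96. Spink5 had 1.70 (1.32 to 2.21), Htra1 0.69 (0.57 to 0.84), Cdo1 0.26 as given above, and Dcn 0.66 in cells with Igfbp3 and 0.57 in Igfbp3-poor cells.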

How the data were processed

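Gene expression was measured by droplet single-cell RNA-seq (10x 3′) of cells dissociated with collagenase II and trypsin. The authors deposited raw counts of UMIs per gene and barcode, filtered by Cell Ranger 4.0.0 (file headers), with no normalization; the genome build was not given in the sources used here. Of 32285 gene identifiers, 32158 are in GENCODE M21 (GRCm38), from which coordinates were taken. Cells with at least 800 genes were kept. Basal cells were selected on the counts as deposited, and kept cells with at least 8000 UMIs were thinned to 8000 with seed 1. Sums over cells were scaled to UMIs per 1000000 (CPM). Intervals are exact Poisson for levels, conditional binomial for ratios and Clopper-Pearson for shares, at 95%. With 1 library per ligand no test was run. Libraries in the files held 72173148 (CpG ODN) and 38656738 (LPS) UMIs.

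Genes counted as past the fold had at least 100 UMIs and differed at least 1.5 times in both libraries (with against without Igfbp3) or 2 times (ligands). Named genes were the label's markers, genes of the lists below, the 12 highest and 8 lowest ratios with Igfbp3 (ranked by the library nearer 1) and the 10 highest and 10 lowest between ligands, leaving out genes of the rule and mitochondrial, ribosomal, immunoglobulin and hemoglobin genes; the remaining genes past the fold, and others chosen after their values were seen (Ltbp1, Lgr6 and Ptgs2 among them), were added. For the ratio with Igfbp3, 1 gene past the fold is counted but not reported here. The members and lists were chosen with earlier results of these data known. The scripts were tested on drawn counts with known changes. Alternatives were the depth, filter, fold, thresholds, seed, cell weighting and cells with markers of other types. Doublets were not called, and 0 columns of other samples were left out. Steps of the Igfbp3 count and the genes set beside it in the same cells were chosen after the data were seen. Of the listed symbols, 4 had no single match (Il36a, Il36g, Ccl27a and Mx1) and were left out. Python 3.11.15, numpy 2.4.6, scipy 1.17.1 and matplotlib 3.10.9 were used.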

Additional observations from a re-analysis of the deposited data

Results flagged for a closer look

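For 6 genes the ratio of basal cells with Igfbp3 to Igfbp3-poor basal cells pointed one way in the CpG ODN library and the opposite way in the LPS library, by at least 1.5 times each. With 1 library per ligand the difference was not tested. Odam had ratios of 120.72 after CpG ODN and 0.118954 after LPS, with 81.3% of the UMIs in cells with Igfbp3 of the first library in 1 cell and all 100 UMIs in Igfbp3-poor cells of the second in 1 cell. BC037156 had 48.3 and 0.221, with 86.9% and 98.2% of the UMIs in 1 cell of the same groups. The hemoglobin genes Hbb-bs (0.418 and 12.1) and Hba-a1 (0.259 and 11.5) had 51.5% and 50.5% of the UMIs in cells with Igfbp3 after LPS in 1 cell. Krt16, a keratin of activated keratinocytes, had 1.62 and 0.470, and 29.6% of its UMIs in Igfbp3-poor cells after LPS came from 1 cell. The ratios of 2610528A11Rik were 0.495 and 1.72, with 26.1% of the UMIs in cells with Igfbp3 after LPS in 1 cell.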

How the results depend on the processing

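No paired analysis was possible because a single library stands for either ligand, and for the same reason no library could be left out. Values are given for CpG ODN and then LPS. The share of basal cells with Igfbp3 (41.8% and 41.7%) was 26.5% and 23.9% at 4000 UMIs per cell, 48.8% (82 cells) and 52.2% at 15000, 31.5% and 29.7% with at least 3 Igfbp3 UMIs, 18.4% and 18.02% with at least 5, and 50.3% and 51.4% without cells holding 2 or more UMIs of markers of other cell types (451 and 70 cells left). That last setting also removes cells for their Dcn, a listed fibroblast marker; an alternative that does not count Dcn was added after seeing the data. Higher and lower genes in cells with Igfbp3 (18 and 10) numbered 7 and 6 at 4000 UMIs, 44 and 19 on counts as deposited, 55 and 38 with a filter of 30 UMIs, 3 and 3 at a fold of 2, and 3 and 5 of 594 genes tested without the cells with other markers; with Dcn not counted, 11 were higher. Of the 18 and 10, 3 and 2 were kept without the cells with other markers, 8 and 8 with Dcn not counted, and 15 and 8 with another seed. Without the cells with other markers, Dcn counted, the ratio of Cdo1 after LPS was 0.949 and that of Dcn after CpG ODN 1.06, and at 4000 UMIs the ratio of Tuba4a after LPS was 0.906. Genes higher after CpG ODN and after LPS (16 and 10) numbered 7 and 5 at 4000 UMIs, 31 and 17 at 15000, 131 and 84 with a filter of 30, 94 and 72 at a fold of 1.5, and 26 and 6 without cells with other markers. Those higher after LPS numbered 16 on counts as deposited, and those higher after CpG ODN 10 with at least 5 Igfbp3 UMIs, 9 with the rule on thinned counts and 4 as a mean over cells. Ligand ratios that turned were Tia1 (1.01) and Stx6 (1.10) at 4000 UMIs, Krt42 (0.157), Cdo1 (1.12), Pim1 (1.15), Gsta3 (1.17), Krt4 (2.96) and Stx6 (1.10) at 15000, Odam (0.595) and Krt42 (0.871) with the rule on thinned counts, Cd74 (0) and Krt4 (1.08) without cells with other markers, and Cd74 (0) and Odam (0.261) with Dcn not counted. Apart from the changes in numbers of cells or genes given, the cause was not tested. Of the named ratios with Igfbp3, 295 alternatives moved by less than counting error, 101 by more and 3 turned. Of the ligand ratios, 154, 29 and 14 did so.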

Other observations

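Some genes under the count filter also had ratios above 1.5 in both libraries in cells with Igfbp3, and they were picked after their values were seen. Bmp2, a secreted BMP ligand, stood at 38.6 CPM in cells with Igfbp3 against 20.3 in Igfbp3-poor cells after CpG ODN (ratio 1.90, interval 1.41 to 2.58) and at 40.8 against 24.0 after LPS (1.70, 1.03 to 2.87). The chemokine gene Cxcl16 stood at 34.4 against 16.4 (2.10) and at 32.7 against 18.3 (1.79).

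Cells with at least 2 Igfbp3 UMIs that missed the rule by their differentiation keratins alone numbered 272 after CpG ODN and 60 after LPS. As counted, they held 97.6 and 119 CPM of Dcn, 1599 and 1238 of Krt17, and 331 and 361 of Wnt4. A further 55 and 31 cells missed it by the mitosis genes alone, with 425 and 352 CPM of Dcn.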
